A study of Mus musculus with 10 samples.

Results

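MHC class II presentation genes were followed in macrophages sorted from mouse lung metastases and from normal lung. The 10 genes were taken by name: H2-Aa, H2-Ab1 and H2-Eb1, which encode chains of the class II molecules, the chaperone gene Cd74, the peptide editor genes H2-DMa, H2-DMb1 and H2-DMb2, the editor's modulator genes H2-Oa and H2-Ob, and the transcriptional coactivator gene Ciita. All 10 were found among the 24538 genes of the count files. Metastasis-associated macrophages (MAMs) were CD11B+ and CD11C-, and resident alveolar macrophages (RAMs) were CD11B- and CD11C+; both were MRC1+, LY6C-, F4/80+, CD45+ and FSC hi, and there were 5 libraries of each. All mice were wild type and 8 to 10 weeks old. The metastases, under 1 mm in diameter, had been seeded in C57BL6/J females 6 to 8 weeks old by tail vein injection of E0771-LG, a mammary tumour cell line derived from the same strain. Each MAM library came from metastases pooled over 2 to 4 mice, and each RAM library came from normal lung. The tissue of origin and the CD11B and CD11C gate changed together, so the part of each in a difference between the groups cannot be told apart. The transcription inhibitors alpha-amanitin and actinomycin D were present during digestion of both tissues.

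Class II molecules are pairs of an α and a β chain that carry peptides from the endosome to the cell surface for CD4+ T cells. Newly made pairs assemble on the invariant chain, the product of Cd74, which fills the groove until endosomal proteases trim it to a fragment called CLIP. H2-DM, a pair of H2-DMa with a DMb chain, then exchanges CLIP for other peptides, and H2-DO, the pair of H2-Oa and H2-Ob, holds H2-DM back and is best known from B cells. Ciita, the coactivator induced by interferon gamma, does not bind DNA but docks on the factors RFX, CREB and NF-Y at a promoter module of X and Y boxes that the class II genes share.

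The members sit in a few places of the genome. By the GRCm38 annotation (GENCODE M21), 8 of the 10 lie on chromosome 17, between the start of H2-Oa at 34092340 and the end of H2-Eb1 at 34316674, interrupted by the class I loading genes Psmb9, Tap1, Psmb8 and Tap2. Ciita spans 10480059 to 10528418 on chromosome 16, and Cd74 lies apart from both. All are protein-coding genes, and H2-Aa is the one member on the minus strand. H2-DMa overlaps Brd2 on the other strand, Ciita overlaps Dexi, and H2-Oa and H2-Eb1 each overlap an antisense gene. Whether the counting used strand is not given in the sources used here, so reads from such pairs could not be separated with certainty. H2-DMb1 and H2-DMb2 are near copies: 11.3% of the 100-base windows of H2-DMb1 transcripts also occurred in H2-DMb2.

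The X and Y boxes of 5 members are shown because such letters were found both in members that were higher in MAMs (H2-Aa, H2-Eb1 and H2-Ob) and in members that were lower (H2-Oa and, with a different X box, H2-DMb2). Each stretch is from the RefSeq promoter table (GRCm38.p6, 250 bases before to 50 after the start), read 5′ to 3′ on the gene's strand. Capitals mark the letters at the start of the X box and the Y box TGATTGG.
H2-Aa (chr17:34287857-34287914, minus strand): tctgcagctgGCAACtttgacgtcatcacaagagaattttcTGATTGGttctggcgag
H2-Eb1 (chr17:34305766-34305822, plus strand): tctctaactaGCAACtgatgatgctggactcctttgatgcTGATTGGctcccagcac
H2-Ob (chr17:34238808-34238862, plus strand): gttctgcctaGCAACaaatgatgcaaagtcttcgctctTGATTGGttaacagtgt
H2-Oa (chr17:34092293-34092350, plus strand): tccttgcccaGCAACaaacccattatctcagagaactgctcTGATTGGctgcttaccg
H2-DMb2 (chr17:34145116-34145173, plus strand): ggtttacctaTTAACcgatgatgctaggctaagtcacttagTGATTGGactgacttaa

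The gap between the capitals was 23 bases in H2-Ob, 25 in H2-Eb1 and 26 in H2-Aa, H2-Oa and H2-DMb2. Windows for 7 of the 10 member genes were in the table. GCAAC lay 15 to 45 bases before TGATTGG in 4 of the 7, searched on both strands, against 0.298% of the 32851 promoter windows of the same length. With the shorter AAC in place of GCAAC the count was 6 of 7, H2-DMb1 included, against 2.71% of windows, and TGATTGG alone was in 7.82%. The H2-DMb1 match lies downstream of the gene start that GENCODE gives, inside the first exon there. The H2-DMb2 stretch shown, from 34145116, also lies downstream of the GENCODE start of its gene, at 34143307. The H2-Oa stretch crosses the GENCODE start of its gene, at 34092340. Neither of the 2 windows of H2-DMa held such a pair. These are matches of letters and were not tested for binding.

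The libraries held 50746305 to 87523247 counts on genes. Levels are given as FPKM, fragments scaled by transcript length and by library size. Testing took in the 11571 genes whose FPKM averaged 1 or more in MAMs or in RAMs, all 10 members among them. A gene was called when the edgeR quasi-likelihood test gave a fold over 2 and a Benjamini-Hochberg adjusted p under 0.05. The sorted cells expressed the macrophage genes Adgre1, Csf1r, Cd68 and Lyz2, although Lyz2 was listed at 0 FPKM in RAM library 1, where the count file held its reads. Of 9 alveolar macrophage markers 8 were called lower in MAMs, of 7 interstitial macrophage markers 7 were called higher, and of 7 monocyte markers 6 were called higher. The remaining monocyte marker, Chil3, was called lower (log2 fold change -6.44), at 50.8 to 70.3 FPKM in MAMs and 5598 to 7641 in RAMs. Over all genes tested 15.3% were called higher in MAMs and 15.1% lower. In sorted populations measured in bulk, fewer cells of a type and less RNA per cell cannot be told apart.

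The presenting chains and Cd74 were higher in MAMs, whereas of the 5 genes of the peptide editor and its modulator 3 were lower, 1 was higher and 1 did not pass the test. Of the 10 members 5 were called higher in MAMs (H2-Aa, H2-Ab1, H2-Eb1, Cd74 and H2-Ob), against 15.3% of all genes tested. H2-DMa, H2-DMb2 and H2-Oa, 3 of the 10, were called lower, against 15.1% of all genes. H2-DMb1 and Ciita did not pass the test. The median log2 fold change of MAMs over RAMs was 1.15 over the members and -0.02 over all genes tested. In CPM, counts scaled to library size, every MAM library lay above every RAM library in 4 members, against 23.7% of all genes, and every RAM library lay above every MAM library in 3, against 21.2%.

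**Figure D1:**
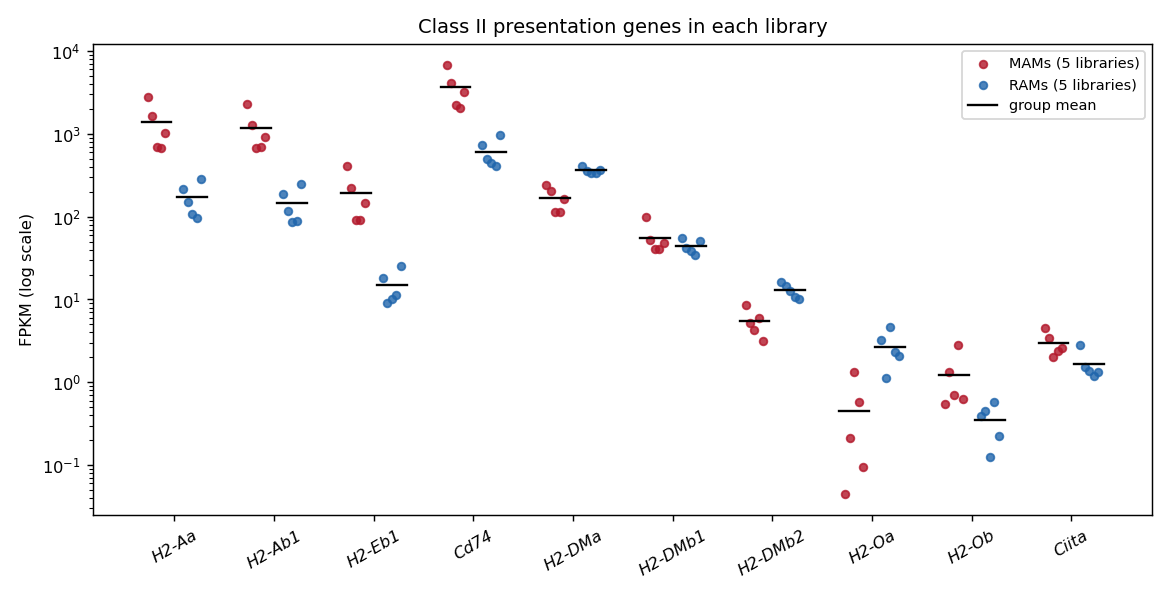
FPKM of the 10 class II presentation genes in each library (log scale), with MAMs in red, RAMs in blue and black lines at the group means, 5 libraries a group; points of a group run from replicate 1 on the left to 5 on the right. The presenting chains and Cd74 are higher in every MAM library, H2-DMa and H2-DMb2 are higher in every RAM library, and H2-DMb1, H2-Oa, H2-Ob and Ciita overlap on this scale.

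H2-Aa encodes the α chain of I-A, the class II molecule that C57BL/6 mice carry on the cell surface. Its level was 2820, 1665, 704, 684 and 1038 FPKM in MAM libraries 1 to 5. In RAM libraries 1 to 5 it was 217, 148, 108, 97.7 and 286 FPKM. The lowest MAM library lay above the highest RAM library, although the level ranged over several fold within each group. The log2 fold change was 3.07 ± 0.41 (SE), 8.37-fold, with an adjusted p of 1.18e-05 (edgeR).

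H2-Ab1 encodes the β chain that pairs with it. It was at 2266, 1286, 684, 691 and 925 FPKM in MAM libraries 1 to 5 and at 190, 117, 86.0, 88.6 and 246 FPKM in RAM libraries 1 to 5. Its order over libraries was nearly that of H2-Aa, with MAM library 1 and RAM library 5 highest. MAMs exceeded RAMs by 3.05 ± 0.38 (SE) in log2, 8.29-fold, with an adjusted p of 5.32e-06 (edgeR). The ratio of H2-Aa to H2-Ab1 counts within a library did not differ beyond the spread (log2 difference -0.06, two-sided exact permutation p = 0.508).

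H2-Eb1, the β chain of I-E, had the largest fold among the members. The MAM libraries 1 to 5 held it at 410, 224, 90.7, 91.7 and 148 FPKM, and the RAM libraries at 17.96, 9.07, 10.1, 11.4 and 25.4 FPKM. The lowest MAM library, at 90.7, was well apart from the highest RAM library, at 25.4. In log2 the change was 3.73 ± 0.43 (SE), 13.3-fold, with an adjusted p of 2.41e-06 (edgeR). C57BL/6 mice are known to lack the I-E α chain, and its locus H2-Ea-ps was listed at 0 FPKM in every library, with 5 counts in MAM library 4 and none elsewhere. The neighbouring class II gene H2-Eb2 reached at most 0.101 FPKM.

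Cd74, the invariant chain, was the most abundant member in both groups. It stood at 6719, 4104, 2244, 2080 and 3172 FPKM in MAM libraries 1 to 5, and at 732, 498, 445, 408 and 958 FPKM in RAM libraries 1 to 5. Again no RAM library reached the lowest MAM library. By GRCm38 the gene spans 60803848 to 60812652 on chromosome 18. MAMs were higher by 2.60 ± 0.32 (SE) in log2, 6.05-fold, with an adjusted p of 5.49e-06 (edgeR). By mean FPKM over all genes of the table Cd74 ranked 44 in MAMs and 77 in RAMs, H2-Aa ranked 65 and 311, and H2-Eb1 ranked 365 and 4262. Cd74 alone took 0.261% ± 0.130 (SD, n = 5) of all gene counts in MAMs and 0.0507% ± 0.0199 (SD, n = 5) in RAMs. All 10 members together took 0.290% to 0.929% of gene counts in MAM libraries and 0.0959% to 0.180% in RAM libraries.

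The H2-DM genes did not move with the presenting chains. H2-DMa, the α chain of the peptide editor, was at 240, 207, 114, 115 and 162 FPKM in MAM libraries 1 to 5. In RAM libraries 1 to 5 it was at 412, 359, 340, 333 and 368 FPKM, above every MAM library and with little spread. The log2 fold change was -1.06 ± 0.18 (SE), that is 2.09-fold higher in RAMs, with an adjusted p of 1.37e-04 (edgeR). The value is close to the fold of 2 that a call needed: without MAM library 3 it was -0.95 and without MAM library 4 -0.95, both under that fold with adjusted p of 2.999e-04 and 2.58e-04.

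H2-DMb1 is the first of the pair of genes for the β chain. It stood at 97.9, 51.6, 40.6, 40.4 and 48.0 FPKM in MAM libraries 1 to 5 and at 55.9, 41.7, 39.0, 34.0 and 50.5 FPKM in RAM libraries 1 to 5. MAM library 1 was far above the rest, and the other 4 MAM libraries lay within the RAM range. The log2 fold change was 0.36 ± 0.23 (SE) and did not pass the test (edgeR adjusted p = 0.194). Without MAM library 1 it was 0.06.

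H2-DMb2, its near copy, was expressed at a lower level and fell in MAMs. It was at 8.60, 5.21, 4.32, 5.96 and 3.16 FPKM in MAM libraries 1 to 5 and at 16.2, 14.6, 12.6, 10.8 and 10.1 FPKM in RAM libraries 1 to 5. Every RAM library lay above every MAM library. In log2 the difference, MAMs less RAMs, was -1.12 ± 0.25 (SE), 2.17-fold higher in RAMs, with an adjusted p of 0.00131 (edgeR). The gene pair shares transcript windows. By the study's methods only reads that mapped uniquely were counted, so reads that fit both copies did not enter the counts. How such reads entered the FPKM values is not given in the sources used here.

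H2-Oa, the α chain of the H2-DM modulator H2-DO, was scarce in both groups and lower in MAMs. The counts were 1, 9, 26, 11 and 3 in MAM libraries 1 to 5 and 132, 39, 151, 65 and 71 in RAM libraries 1 to 5. As levels these were 0.0448 to 1.32 FPKM in MAMs and 1.11 to 4.59 FPKM in RAMs, so only MAM library 3 lay above the lowest RAM library in FPKM. In CPM the groups did not overlap, but MAM library 3 at 0.581 lay just under RAM library 2 at 0.586. The log2 fold change was -3.13 ± 0.82 (SE), 8.78-fold higher in RAMs, with an adjusted p of 0.00430 (edgeR). Without MAM library 3 it was -4.01, and on log2(FPKM + 1), which compresses low values, it was -1.34.

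H2-Ob, the β chain of H2-DO, went the other way. It was at 0.5503, 1.32, 0.702, 2.84 and 0.633 FPKM in MAM libraries 1 to 5 and at 0.392, 0.444, 0.124, 0.585 and 0.222 FPKM in RAM libraries 1 to 5. MAM library 4 was the highest, and MAM library 1, the lowest, lay below RAM library 4, the highest of its group. A log2 fold change of 1.73 ± 0.62 (SE), 3.33-fold, came with an adjusted p of 0.0270 (edgeR), or 0.63 on log2(FPKM + 1). The call rested on single libraries. Without MAM library 4 the log2 fold change was 1.15 with an adjusted p of 0.123, and without RAM library 1, 3 or 5 the adjusted p was 0.0516, 0.0570 and 0.0610. H2-DO is known from B cells, and the summed FPKM of 10 B cell markers was 5.21, 8.28, 8.97, 20.3 and 9.74 in MAM libraries 1 to 5. In RAM libraries 1 to 5 it was 5.17, 11.0, 3.27, 10.5 and 13.1. Among MAMs the sum was also highest in library 4. Among RAMs it was highest in library 5, where H2-Ob was at 0.222 FPKM. The RAM sum was lowest in library 3, where H2-Ob was also lowest, at 0.124 FPKM. None of the 5 B cell markers tested was called. The part of those cells in the H2-Ob result was not tested.

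Ciita, the coactivator, was at a low level and did not pass the test. It was at 4.56, 3.38, 2.04, 2.38 and 2.57 FPKM in MAM libraries 1 to 5 and at 2.79, 1.54, 1.36, 1.18 and 1.35 FPKM in RAM libraries 1 to 5. RAM library 1 lay above 3 of the MAM libraries, and the other 4 RAM libraries lay below every MAM library. The log2 fold change was 0.57 ± 0.29 (SE), 1.49-fold, with an adjusted p of 0.105 (edgeR). Without RAM library 1 it was 0.83 with an adjusted p of 0.0197. On log2(FPKM + 0.1) it was 0.83 and on log2(FPKM + 1) 0.59, with adjusted p of 0.0275 and 0.0280 by limma.

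**Figure D2:**
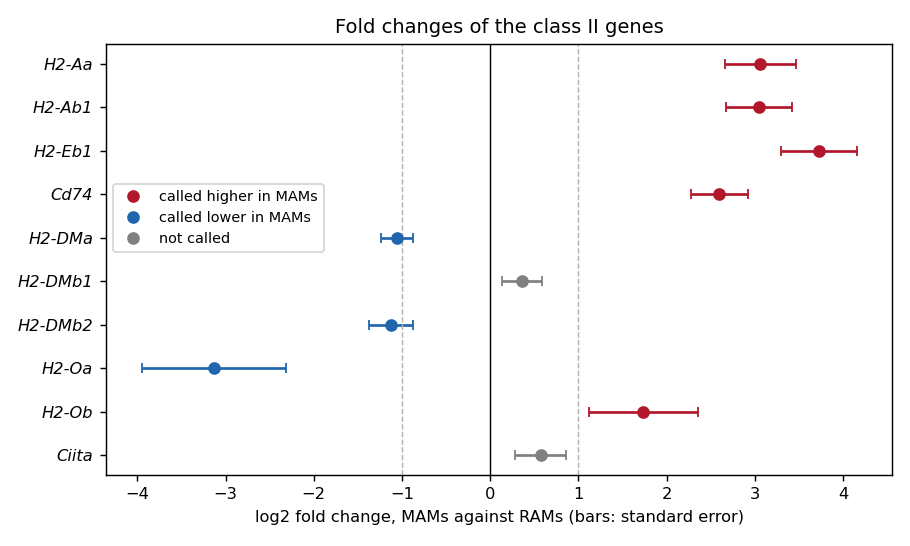
Log2 fold change of MAMs over RAMs for each class II gene from the edgeR fit, 5 libraries a group, with bars of 1 standard error and dashed lines at the fold of 2 that a call needed. The presenting chains and Cd74 lie between 2.60 and 3.73, H2-Ob at 1.73 has a wide bar, H2-DMb1 and Ciita lie inside the dashed lines, and H2-DMa, H2-DMb2 and H2-Oa lie below zero.

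The order of the levels per length differed between the groups. In MAMs the mean FPKM ran from Cd74 through H2-Aa, H2-Ab1, H2-Eb1, H2-DMa, H2-DMb1, H2-DMb2, Ciita and H2-Ob to H2-Oa. Neighbours in that order overlapped over the libraries, except H2-Ab1 with H2-Eb1, H2-DMa with H2-DMb1 and H2-DMb1 with H2-DMb2. In RAMs H2-DMa stood second after Cd74 and above H2-Aa in all 5 libraries, H2-DMb1 stood above H2-Eb1, and H2-Oa stood above Ciita and H2-Ob. The RAM neighbours that overlapped were Cd74 with H2-DMa, H2-Aa with H2-Ab1, H2-Eb1 with H2-DMb2, and H2-Oa with Ciita.

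Ratios between members within a library put the shift of balance on a scale that does not depend on library size. Of 9 ratios compared, 8 differed between the groups (two-sided exact permutation test, adjusted over the 9), and in 7 the libraries did not overlap. The ratios share genes, H2-Ab1 most often, so they are not independent results. With 5 libraries against 5 the smallest p such a test can give is 0.00794, which is 0.0102 after adjustment where it was reached. H2-DMa to H2-Ab1 moved most among the abundant members: in FPKM the ratio was 0.106, 0.161, 0.167, 0.167 and 0.175 in MAM libraries 1 to 5 and 2.17, 3.06, 3.96, 3.76 and 1.497 in RAM libraries 1 to 5. RAMs thus held more H2-DMa than H2-Ab1 per length and MAMs the reverse, with a log2 difference of the count ratio of -4.15 or 17.7-fold (adjusted exact permutation p = 0.0102). Every MAM library lay above every RAM library in H2-Ab1 and below in H2-DMa. The separation of this ratio and its p therefore follow from those gene results and add no further test.

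Within H2-DM, the ratio of H2-DMb1 to H2-DMa was 2.68-fold higher in MAMs, at -1.99 ± 0.27 on the log2 scale in MAMs and -3.42 ± 0.17 in RAMs (SD, n = 5 each, adjusted exact permutation p = 0.0102). The ratio of H2-DMb2 to H2-DMb1 was 2.69-fold higher in RAMs (adjusted exact permutation p = 0.0102). Within H2-DO, H2-Oa to H2-Ob was 39.9-fold higher in RAMs on a scale of counts with 0.5 added, and it ranged widely within each group, from 0.0814 to 1.88 in MAMs and from 2.504 to 37.1 in RAMs as FPKM ratios. The log2 difference of H2-Oa to H2-Ob was -5.32, and it was -6.01 without MAM library 3, -4.69 without RAM library 3 and -4.39 with 5 added in place of 0.5. H2-Ob to H2-DMa was 7.16-fold higher in MAMs.

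Against H2-Ab1, Ciita was 5.43-fold higher in RAMs and Cd74 1.40-fold higher in RAMs, both without overlap (adjusted exact permutation p = 0.0102). Cd74 thus rose in MAMs by less than the I-A β chain. H2-Eb1 to H2-Ab1 was 1.49-fold higher in MAMs with overlapping libraries (adjusted exact permutation p = 0.0268), and leaving out any of 7 single libraries (MAM 1, 2 or 5, RAM 1, 2, 3 or 5) gave an adjusted p of 0.0536.

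**Figure D3:**
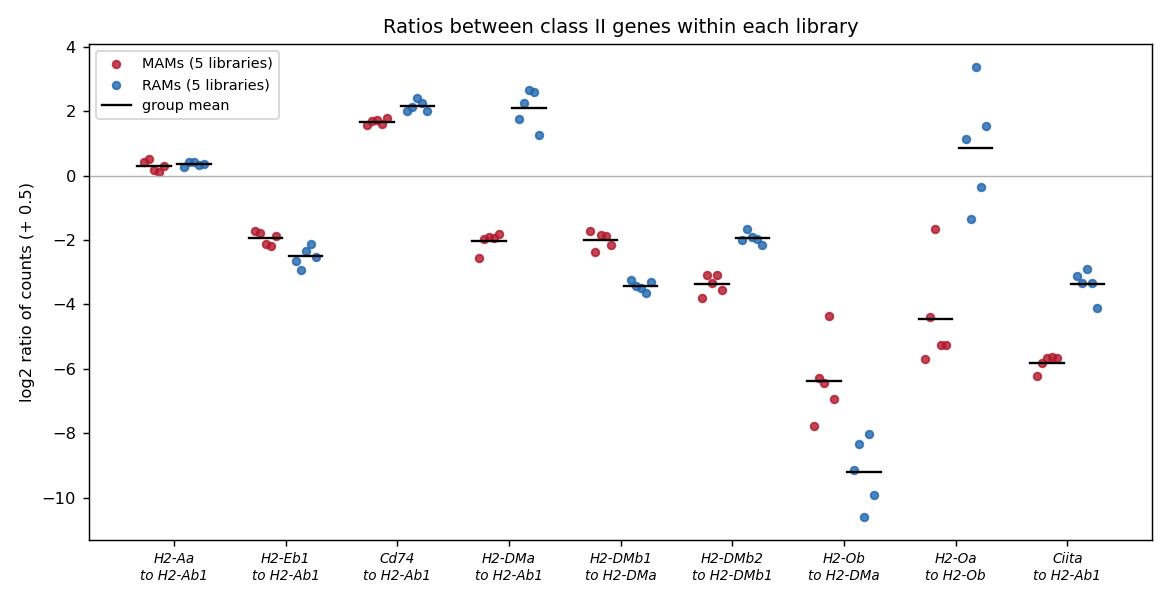
Log2 ratio of counts (0.5 added) between class II genes within each library, with MAMs in red, RAMs in blue and black lines at the group means, 5 libraries a group. H2-Aa to H2-Ab1 overlaps between the groups, H2-DMa to H2-Ab1 moves from about -2.04 in MAMs to 2.11 in RAMs, and H2-Oa to H2-Ob has the widest spread.

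The spread among libraries was large for genes this abundant. The SD of log2 CPM (counts scaled to the library size by the TMM factors) of H2-Aa was 0.88 in MAMs, larger than that of 98.0% of the 1504 genes over 50 FPKM there, and 0.66 in RAMs, larger than that of 98.1% of 1252 genes. H2-Ab1 and Cd74 in both groups, and H2-Eb1 in MAMs, exceeded 96.5% to 98.3% of such genes. H2-Eb1 in RAMs, where its level was lower, exceeded 87.8% of all genes tested. H2-DMa had an SD of 0.49 in MAMs, above 94.8% of such genes, but 0.14 in RAMs, above 57.4%. The coefficient of variation of H2-DMa CPM was 33.8% in MAMs and 9.97% in RAMs.

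The presenting chains and Cd74 deviated together. Their mean deviation from the group mean, in log2 CPM, was 1.19, 0.36, -0.69, -0.73 and -0.12 in MAM libraries 1 to 5 and 0.48, -0.27, -0.51, -0.52 and 0.83 in RAM libraries 1 to 5. MAM library 1 and RAM library 5 were thus highest, and libraries 3 and 4 lowest in each group. Over the 10 libraries the deviations of H2-Aa and H2-Ab1 had a Pearson r of 0.99, and those of H2-Aa and Cd74 also 0.99. These are descriptions over libraries that share a scaling, with no test.

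H2-DMa, H2-DMb1 and Ciita deviated in the same direction as the presenting chains and Cd74, with r of 0.86, 0.90 and 0.86 to their mean. H2-DMb2 had an r of 0.69. H2-Oa and H2-Ob did not share the pattern, with r of -0.47 and -0.33, and had only 1 to 437 counts a library. Among all genes tested, r to the same mean ran from -0.64 to 0.65 between the lowest and highest 5%. So H2-DMa was lower in MAMs and yet, mainly among MAM libraries, stood high where the presenting chains stood high. In RAMs its deviations ran only from -0.14 to 0.22, with 0.03 in library 5, where the presenting chains were highest.

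**Figure D4:**
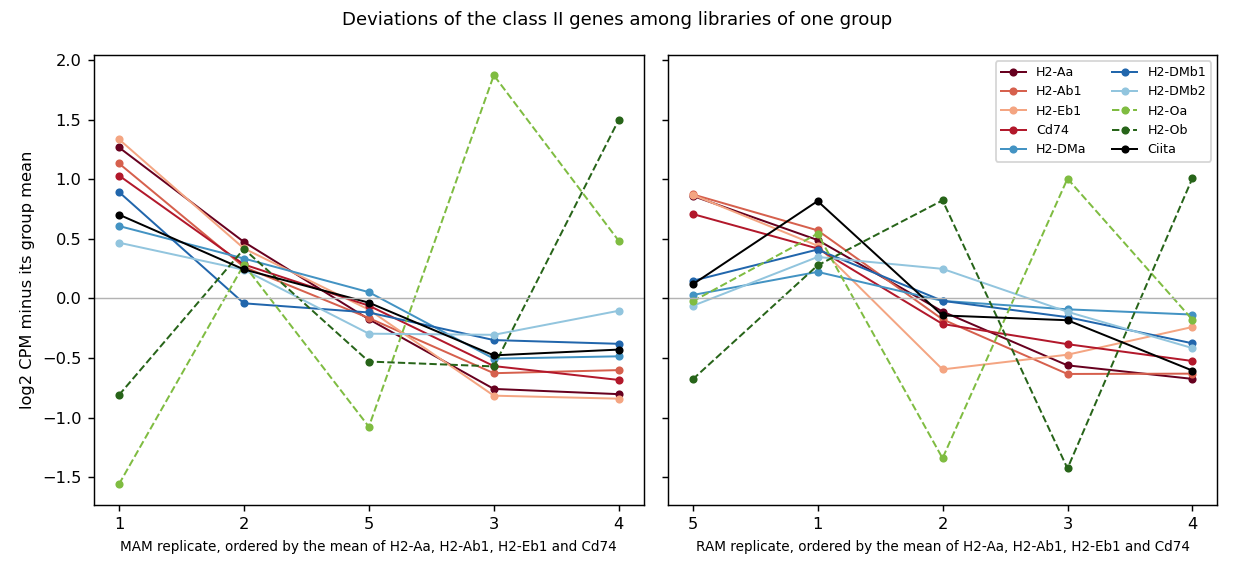
Deviation of log2 CPM from the group mean for each class II gene, in MAMs on the left and RAMs on the right, with libraries placed from the highest to the lowest mean of H2-Aa, H2-Ab1, H2-Eb1 and Cd74 and points joined by gene. The mean of those 4 genes descends by construction, H2-DMa, H2-DMb1 and Ciita descend with them in MAMs, and the dashed H2-Oa and H2-Ob do not.

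The 10 genes outside the members whose deviations were most like that mean over the 10 libraries were Osgin2, Pi4ka, Dpcd, Man2b1, Tns4, March5, Atox1, Tor3a, Ncstn and 3830406C13Rik, with r from 0.99 to 0.91. Osgin2 was the nearest and was itself called higher in MAMs, with a log2 fold change of 1.63. Tns4, Atox1 and Tor3a were also called higher, and the other 6 were not called. Of the companion genes described next, Ifi30 (r = 0.88) and Irf4 (r = 0.86) were the nearest, and Lgmn (r = -0.72) ran opposite.

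Dendritic cells, which present strongly through class II, were looked for by 11 markers. Their summed FPKM was 21.9, 17.5, 10.8, 14.3 and 23.6 in MAM libraries 1 to 5 and 15.4, 8.73, 10.4, 10.6 and 14.9 in RAM libraries 1 to 5. The sum was largest in MAM libraries 5 and 1 and in RAM libraries 1 and 5, and its largest term in MAMs was Batf3, a transcription factor of cross-presenting dendritic cells, at 8.30 to 22.2 FPKM. Flt3 and Siglech were listed at 0 in every MAM library and at up to 0.0273 and 0.218 FPKM in RAMs. Zbtb46 was at 0.505 to 1.08 FPKM in MAMs and 0.150 to 1.02 in RAMs. Dpp4 was at 0.166 to 1.26 FPKM in MAMs and 0.0229 to 0.174 in RAMs, Cd209a at up to 1.88 and up to 0.0259, and Xcr1 at 0.101 to 0.586 and 0.0522 to 0.142. Itgae was at 0.0218 to 0.419 FPKM in MAMs and 0.0837 to 0.613 in RAMs, and Kit at up to 0.0527 and up to 0.163. Of the 3 dendritic cell markers tested, Ccr7 and Batf3 were called higher and Clec9a lower. Clec9a was at 0.0390 to 0.488 FPKM in MAMs and 3.26 to 5.28 in RAMs. Ccr7 and Batf3 overlapped between the groups, with Ccr7 at 0.0973 to 3.51 FPKM in MAMs and 0.0477 to 0.455 in RAMs. The markers of T and NK cells summed to 1.38 to 5.75 FPKM in MAMs and 0.875 to 3.71 in RAMs. Alveolar type II cells express class II genes too. Their 7 markers summed to 22.1 to 45.9 FPKM in MAMs and 48.6 to 75.9 in RAMs. The part of these other cells in the class II levels was not tested.

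The genes that act around the class II members were read from lists taken by role. Of 50 companion genes in the files 47 were tested, 19 were called higher in MAMs and 5 lower, 12 had an adjusted p under 0.05 with a fold under 2, and 11 did not pass. Over all genes tested 30.3% were called in either direction, and 56.2% had an adjusted p under 0.05 whatever the fold, 28.9% in the direction of MAMs and 27.3% in that of RAMs. The companions had a median log2 fold change of 0.60.

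Of the 7 genes for factors that bind the X and Y boxes, 5 did not pass the test. Rfxap, a subunit of RFX, was called higher, at 6.49 to 9.66 FPKM in MAMs and 3.003 to 4.62 in RAMs (log2 fold change 1.05 ± 0.20 SE, edgeR adjusted p = 4.18e-04). Rfx5, its DNA-binding subunit, was lower by a fold under 2 (-0.50, edgeR adjusted p = 0.0227). The third RFX subunit Rfxank (-0.46), the NF-Y subunits Nfya (0.25), Nfyb (0.33) and Nfyc (-0.52), and Creb1 (-0.16) did not pass the test.

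Of 10 genes known to induce Ciita, 5 were called higher in MAMs and 1 lower, against 15.3% and 15.1% of all genes tested. Irf1, an interferon-induced activator of Ciita, had a log2 fold change of 2.36 and stood at 49.5 to 87.3 FPKM in MAMs against 10.3 to 16.7 in RAMs. The receptor kinase Jak2 had 1.36, the receptor chain Ifngr2 1.34 and Irf4, a lymphoid and myeloid factor, 1.31. Unlike the others, Irf4 overlapped between the groups, at 3.15 to 15.9 FPKM in MAMs and 2.05 to 4.34 in RAMs. Its level was highest in MAM library 1. Usf1, which binds a Ciita promoter, was called lower at -1.15.

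Of 6 genes known to restrain class II expression, 3 were called higher in MAMs and 1 lower, against 15.3% and 15.1% of all genes tested. Socs1, the feedback inhibitor of the Jak kinases, had a log2 fold change of 3.13 ± 0.79 (SE), and the suppressive cytokine gene Il10 had 3.03 ± 0.46 (SE). Il10 stood at 5.36 to 16.1 FPKM in MAMs and at 0.237 to 1.23 FPKM in RAMs. Its receptor gene Il10ra was also called higher, at 1.56. Zbtb32, a repressor of Ciita known from B-lineage cells, was called lower at -2.09 from a low level, 2.57 to 4.43 FPKM in RAMs.

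Proteases and enzymes of antigen processing were all higher in MAMs. Of 7, 4 were called higher, against 15.3% of all genes tested. The other 3 had an adjusted p under 0.05 with a fold under 2. Ctsl and Ctsb, cathepsins, had log2 fold changes of 3.04 ± 0.15 (SE) and 2.80 ± 0.08 (SE), and Lgmn, the asparaginyl endopeptidase, had 2.89 ± 0.17 (SE). Sppl2a, which removes the last stub of the invariant chain, had 1.06. Ctss, the protease best known for trimming the invariant chain, was at 3766 to 4138 FPKM in MAMs and 1882 to 2516 in RAMs, a log2 fold change of 0.86. The coefficient of variation of their CPM in MAMs ran from 4.47% in Ctss to 20.4% in Ctsl and 28.6% in Lgmn, beside 65.5% in H2-Aa.

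Genes of class II turnover and membrane organisation moved in both directions. Of 7, 1 was called higher, against 15.3% of all genes tested, and 2 lower, against 15.1%. The tetraspanin Cd63 was higher (log2 fold change 2.69), and the tetraspanins Cd9 (-3.28) and Cd82 (-1.42) were lower. March1, the ubiquitin ligase that removes class II from the surface, was higher by a fold under 2 (0.57, edgeR adjusted p = 1.48e-04). Of the 5 partners of Cd74 and its ligands, Mif, the cytokine that binds surface CD74, was called higher (2.43), the chemokine receptor Cxcr2 was called lower (-2.07), and Cd44, the signalling partner, was lower by a fold under 2 (-0.94, edgeR adjusted p = 5.45e-09).

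Genes that lie between the class II members on chromosome 17 were also read, with Btnl2, which lies beyond H2-Eb1 and was not tested. Of 6 listed, 5 were tested and 4 were called higher, against 15.3% of all genes tested. They were the peptide transporter genes Tap1 (log2 fold change 3.10) and Tap2 (1.14) and the immunoproteasome genes Psmb8 (1.74) and Psmb9 (1.70). Brd2, which overlaps H2-DMa, was higher by a fold under 2 (0.36, edgeR adjusted p = 0.00159), while H2-DMa was lower. From H2-Oa to H2-DMb1 the members had log2 fold changes of -3.13 to 0.36, and from H2-Ob to H2-Eb1 they had 1.73 to 3.73. The members on the 2 sides of the class I loading genes thus differed in direction or size. This split was noticed after the values were seen and is given as a description.

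**Figure D5:**
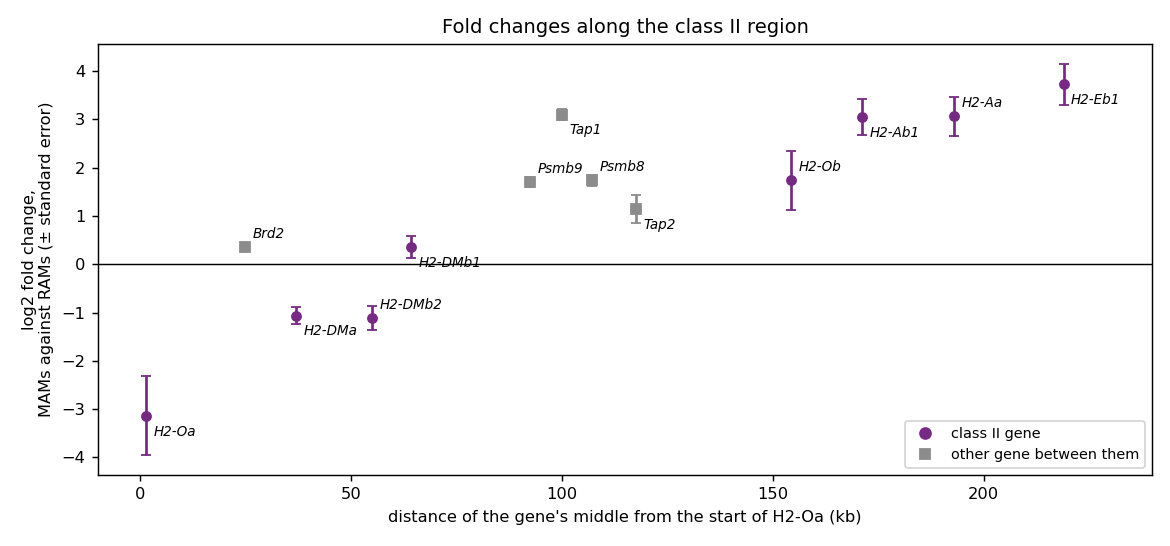
Log2 fold change of MAMs over RAMs (bars, 1 standard error) against the distance of each gene's middle from the start of H2-Oa in kilobases, for the 8 class II genes of chromosome 17 in purple and the tested genes between them in grey. H2-Oa, H2-DMa, H2-DMb2 and H2-DMb1 lie between -3.13 and 0.36, and H2-Ob, H2-Ab1, H2-Aa and H2-Eb1 lie between 1.73 and 3.73.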

How the data were processed

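RNA of sorted MAMs and RAMs (5 libraries each) was sequenced with the Ovation RNA-Seq System V2 kit in read pairs. The authors aligned the reads to mm10 (GRCm38) with TopHat2 2.0.13 and deposited raw counts per gene from HTSeq 0.6.1 on RefGene models, and the authors also deposited FPKM values made with Cufflinks 2.2.1. The submitters' processing notes also name DESeq2 1.6.3. Summary lines that name no gene held 54.6% to 58.3% of all counts in MAMs and 62.2% to 64.1% in RAMs. They entered neither library sizes nor tests.

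Groups and replicate numbers came from the sample titles. Genes whose FPKM averaged 1 or more in MAMs or RAMs, with at least 1 count, were tested on the deposited counts with edgeR 4.0.16 (R 4.3.3; TMM, glmQLFit, glmQLFTest) and Benjamini-Hochberg adjustment over 11571 genes. TMM factors were 0.897 to 0.943 in MAMs and 1.07 to 1.10 in RAMs. CPM was taken over the tested genes with these factors, and deviations used log2 CPM with a prior count of 2. Ratios used counts with 0.5 added and a two-sided exact permutation test over the 252 splits. A count of 0 allows up to 3 counts, and this limit covers counting error only, since the reads carry no molecular identifiers and one molecule can give several. No 2 libraries of a group held identical counts. On simulated counts for this comparison over 11571 genes with 200 changed, 86% of changes of 1.5 and 93% of changes of 3 (log2) were called, with 4 false calls. By the study's methods each sample is 1 mouse or a pool of metastases, and p-values measure the spread between these libraries.

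Alternatives were DESeq2 1.42.0, other scalings and filters, limma 3.58.1 on log2 FPKM with 1 or 0.1 added, a test against the fold of 2 (glmTreat), the replicate number as a block, and leaving out each library. The members and gene lists were chosen with earlier results of these data known. The text names all members, the X and Y box factors, the 3 tested genes of largest change in each other pathway list with any gene a result turns on, the top gene and markers at 0 of the cell type lists, and the 10 genes most like the members; some genes these rules name are not reported here. Promoter sequences and positions were read from RefSeq (GRCm38.p6) and GENCODE M21.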

Additional observations from a re-analysis of the deposited data

Results flagged for a closer look

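A library was compared with the other 4 of its group for each of 38 sets of values, levels of the members and ratios between them, by its gap to the nearest library over the group's range against Dixon's critical value of 0.71. Chance flags about 1 group in 20. In MAM library 1 H2-DMb1 was at 106.5 CPM, with the other 4 MAM libraries at 44.0 to 55.7 CPM, and the gap was 0.8127 of the range. In the same library the log2 ratio of H2-DMa to H2-Ab1 was -2.563, with the other 4 at -1.97 to -1.82, and the gap was 0.8024 of the range. It was also the library with the highest H2-Aa, H2-Ab1, H2-Eb1 and Cd74 levels.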

How the results depend on the processing

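When the fold of 2 was tested itself (glmTreat), 1 member was called lower, in place of 3, and 1 companion gene, in place of 5, and 4 members were called higher; that test by construction asks for more than the fold itself. The other alternatives kept the direction of each member's fold change. Leaving out 1 library at a time gave 4 to 5 members called higher and 2 to 3 lower, 18 to 20 companions higher and 5 lower, and 7 to 8 ratios that differed. Among the members' log2 fold changes H2-Oa (-4.01 to -2.83) and H2-Ob (1.15 to 2.01) moved most, and the log2 ratio of H2-Oa to H2-Ob moved from -6.01 to -4.69. H2-Ob kept an adjusted p under 0.05 under the scalings and filters tried, with DESeq2 (0.0109) and with limma on log2(FPKM + 1) (0.0452), where its fold was under 2. Upper-quartile scaling moved the median log2 fold change of all genes tested from -0.02 to -0.18, and H2-DMb1 and Ciita were then at 0.19 and 0.40 with that shift included. The number of genes called in all was 3511, and 4672 without a filter.

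Over all genes tested the replicate numbers showed no pairing: the deviations of same-numbered libraries had correlations of -0.037 to 0.029, 0 of 5 over 0.1. Of 10 libraries 3 correlated best with their own number. These values describe all genes together. The mean deviation of the presenting chains and Cd74 was lowest in libraries 3 and 4 of each group. It was highest in MAM library 1 and RAM library 5. Whether same-numbered libraries shared a batch was not tested. With the replicate block 3526 genes were called, with 5 members higher and 3 lower, 19 companions higher and 5 lower, and Ciita at 0.59 (edgeR adjusted p = 0.0266). At 1 to 26 counts in MAMs, depth limits the size of the H2-Oa difference.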
